A study of Mus musculus with 6 samples.

Results

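The kidney genes described here are 9 aquaporins (Aqp1 to Aqp8 and Aqp11) and Avpr2, the gene of the V2 vasopressin receptor, 10 of the 24434 gene symbols in the count table. They were taken by symbol, with earlier results of these data known, and all 10 passed the filter on low counts. Polyadenylated RNA of whole kidney was sequenced in 6 libraries, 3 with the label db/db and 3 with the label db/m, all from mice on normal chow. The db allele disrupts the leptin receptor, homozygous db/db mice become obese and diabetic, and db/m mice, with a single db allele, were the controls. The model is therefore a whole-body loss of leptin signalling, and its effects on the kidney come with obesity as well as high blood sugar. Sources used here gave no age, sex or strain, so a difference in these between the labels could not be told apart from genotype. The labels do not say that each library came from another animal, so p-values measure only the spread between these libraries.

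Aquaporins are membrane channels that let water, and in some members glycerol or other small solutes, follow an osmotic gradient. In the proximal tubule and the thin descending limb AQP1 carries the constitutive reabsorption of filtered water. In the collecting duct vasopressin binds the V2 receptor on the blood side of principal cells and raises cyclic AMP. This moves AQP2 vesicles into the luminal membrane and, over longer times, raises transcription of Aqp2. AQP3 and AQP4 then give the water its exit on the blood side.

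Total counts per library ran from 25937756 to 35931140, and levels below are counts scaled to library size with TMM factors (CPM, the usual per-million unit). Libraries are named by group and replicate number, such as db/m 1. The value of 3 counts, the limit that a count of 0 allows, came to 0.0759 to 0.12 CPM. This limit covers counting error only and takes each fragment as counted once, which may not hold. Markers of the labelled tissue were abundant, with the proximal phosphate transporter Slc34a1 at 4033 to 8185 CPM. Lepr, which carries the db mutation, stood at 2.94, 2.48 and 3.61 CPM under the db/m label and 5.66, 2.54 and 5.15 CPM under the db/db label, so gene-level counts did not settle the genotype and groups are named by their labels. In whole kidney RNA, fewer cells of a type and less RNA per cell cannot be told apart.

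Aqp2 and Aqp6 fell in the db/db libraries and Aqp11 rose. Avpr2 was also called lower, but its groups overlapped and the call was at the threshold. In edgeR's quasi-likelihood test, with p adjusted over all 16373 genes tested and a threshold of 0.05, 3 of 10 genes were called lower and 1 of 10 higher. Over all genes tested 10.8% were called lower and 13.1% higher, that is 1774 and 2151 genes, a split that became 4883 and 1072 with total counts only as the scaling. The 3 calls as lower became 1 without db/db 2 or without db/db 3, and 0 without both db/m 3 and db/db 2, which stood apart in medullary markers as given below. The call of Aqp11 held in these fits. The median log2 fold change (db/db over db/m) was -0.88 over these genes and -0.06 over all genes tested. The groups did not overlap for 3 of 10 genes that were lower, against 22.2% of all genes, and for 1 that was higher, against 22.4%. In the proximal tubule and descending limb, Aqp1, Aqp7 and Aqp11 had log2 fold changes from -0.17 to 0.50. Aqp8, placed with them here but scarce (0 to 57 counts), had -2.08 and was not called. All 5 aquaporins of the connecting tubule and collecting duct (Aqp2 to Aqp6) had values below 0, from -2.01 to -0.30, of which 2 passed the test. Among these Aqp5 had only 5 to 41 counts.

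**Figure D1:**
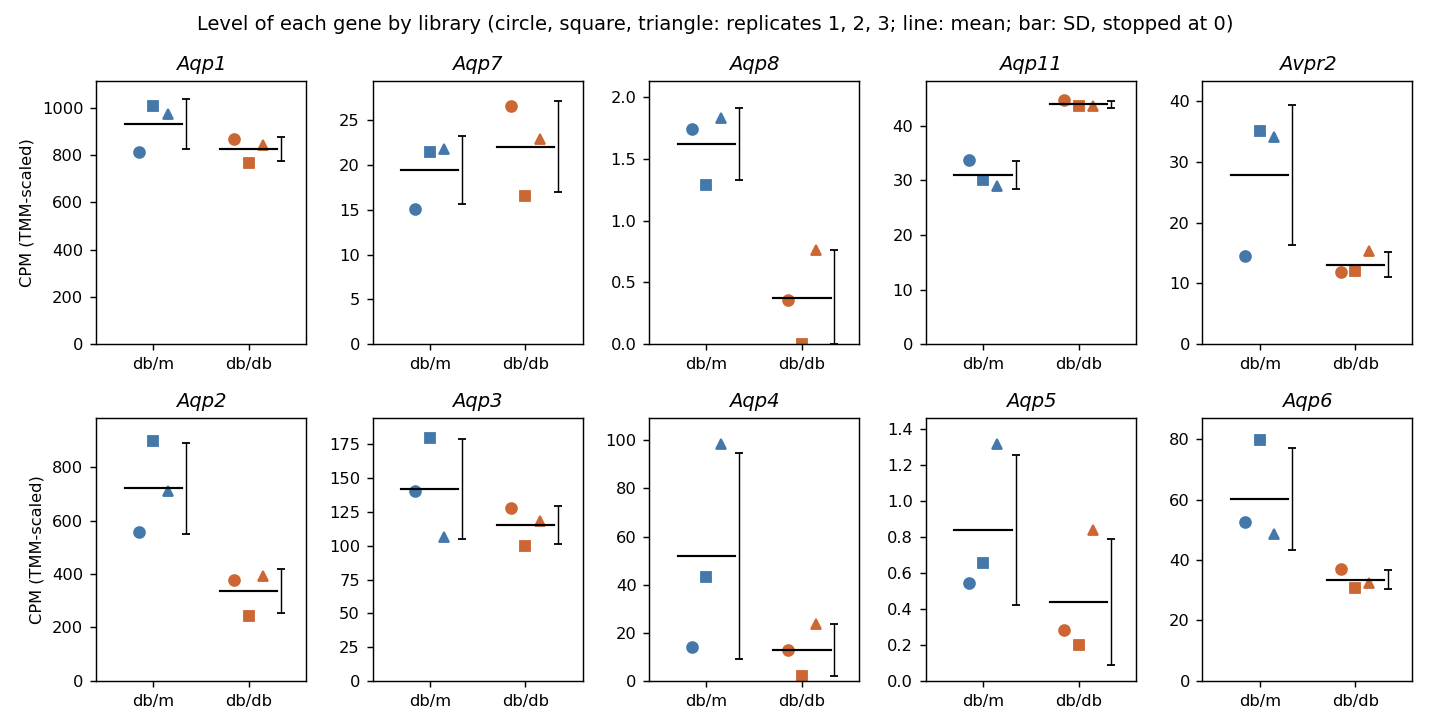
Level of each gene (y axis, CPM of the TMM-scaled library size, starting at 0) in the 3 db/m (blue) and 3 db/db (orange) libraries, with the mean (line) and SD (bar, stopped at 0). The groups are apart for Aqp2, Aqp6, Aqp8 and Aqp11, and overlap for the other genes.

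**Figure D2:**
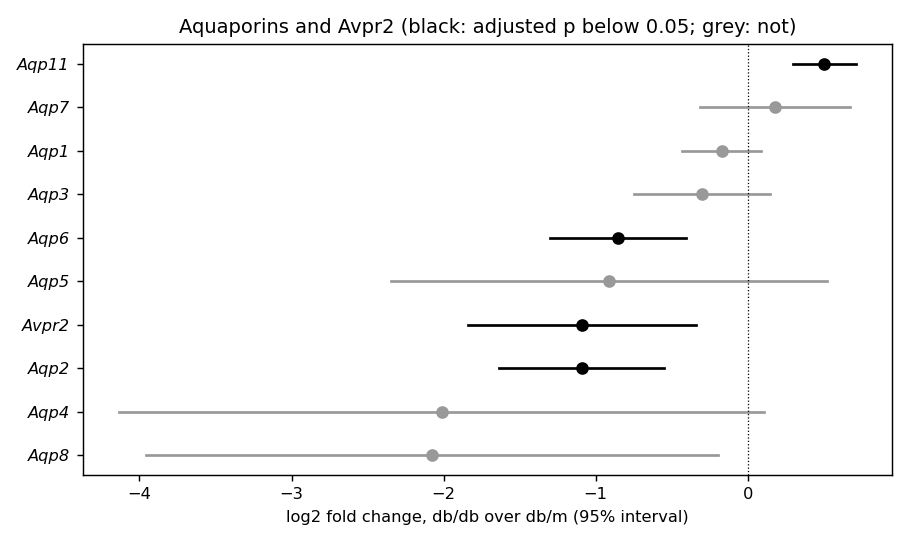
Log2 fold change of each gene (x axis, db/db over db/m, point) with its 95% interval (line). The intervals of Aqp2, Aqp6, Avpr2, Aqp8 and Aqp11 leave out 0, and all of these except Aqp8 also passed the adjusted threshold (black).

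Compared per kilobase, since longer transcripts collect more fragments, Aqp2 and Aqp1 were the most abundant members, and their order differed between the groups. In db/m libraries Aqp2 averaged 508 ± 120 CPM per kb and Aqp1 354 ± 40.2 CPM per kb (SD, n = 3). In db/db libraries the averages were 238 ± 58.0 CPM per kb for Aqp2 and 314 ± 19.6 CPM per kb for Aqp1. The ratio of Aqp2 to Aqp1 CPM within a library, which needs no length, was 0.686, 0.889 and 0.730 in db/m replicates 1 to 3 and 0.434, 0.317 and 0.468 in db/db replicates 1 to 3. The groups did not overlap, and an exact two-sided permutation test gave p = 0.10, the smallest that 3 against 3 allows (adjusted p = 0.22 over 11 ratios). Aqp3 came next in both groups, at 77.7 ± 20.1 CPM per kb under db/m and 63.1 ± 7.80 under db/db, followed by Aqp6 at 24.9 ± 6.96 and 13.8 ± 1.31 CPM per kb. Below them Avpr2, Aqp4 and Aqp7 had overlapping ranges in db/m libraries, between 2.25 and 15.8 CPM per kb, so their order there was not resolved. Aqp8 and Aqp5 were the least abundant in both groups, at 1.03 and 0.324 CPM per kb under db/m. Lengths are unions of GENCODE M21 exons, which may not be the annotation used for counting.

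Avpr2, the receptor that starts the cyclic AMP signal, stood at 14.6, 35.0 and 34.1 CPM in db/m replicates 1 to 3 and 11.8, 12.01 and 15.4 CPM in db/db replicates 1 to 3. The other db/m libraries were well above the rest, but db/m 1 lay below db/db 3, so the groups overlapped. The fitted log2 difference was -1.09 (SE 0.32, edgeR adjusted p = 0.0457). This call was at the threshold. It ended with limma-voom (adjusted p = 0.0902) and when db/m 2 (adjusted p = 0.131), db/m 3 (0.108), db/db 1 (0.129), db/db 2 (0.133) or db/db 3 (0.0851) was left out, while without db/m 1 it had adjusted p = 0.00287. Arhgap4 overlaps Avpr2 in the RefSeq table and was at 3.38 to 5.69 CPM for db/m and 2.99 to 4.32 CPM for db/db. Sources used here did not give how reads in such overlaps were assigned.

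Aqp2, the vasopressin-regulated channel of the luminal membrane of principal cells, had 556, 897 and 710 CPM in db/m replicates 1 to 3 and 377, 243 and 394 CPM in db/db replicates 1 to 3. Every db/db library was below every db/m library. The log2 fold change was -1.09 (SE 0.23, 95% interval -1.63 to -0.55, edgeR adjusted p = 0.0154), which is 2.13-fold lower. Leaving out any single library kept the call, with log2 fold changes of -1.23 to -0.90 and adjusted p of 0.0136 to 0.0459.

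Aqp3, which lets water and glycerol leave principal cells on the blood side, had 140, 180 and 106 CPM in db/m libraries and 128, 100 and 118 CPM in db/db libraries. The groups overlapped, and the log2 fold change of -0.30 (SE 0.19, 95% interval -0.75 to 0.15, edgeR adjusted p = 0.281) did not pass. The ratio of Aqp2 to Aqp3 was 3.96, 4.99 and 6.68 under db/m and 2.94, 2.43 and 3.34 under db/db. The ratio was lower in every db/db library than in any db/m library, with p = 0.10 by the exact permutation test (two-sided, adjusted p = 0.22 over 11 ratios). The ratio of Aqp2 to its upstream receptor Avpr2 overlapped, at 20.8 to 38.1 for db/m and 20.3 to 31.8 for db/db (exact permutation p = 0.70).

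Of 8 principal cell markers outside the aquaporins, 7 had values below 0, with a median log2 fold change of -0.34. The test called 1 of 8 lower, beside 10.8% of all genes. The summed level of all 8 was 414, 599 and 431 CPM under db/m and 403, 423 and 427 CPM under db/db. The homeobox gene Hoxb7, active along the collecting duct, was the member called, with a log2 fold change of -0.40 (SE 0.11, edgeR adjusted p = 0.0369), and it passed only with db/m 1 as the library left out (adjusted p = 0.0756 to 0.126 without any other, and 0.0528 with no filter). The sodium channel subunit Scnn1a had -0.29 (adjusted p = 0.176), Gata3 -0.58 (0.187) and the sodium pump modulator Fxyd4 -0.51 (0.197, and 0.0466 without db/m 1). Elf5, an epithelial transcription factor gene, was lowest in fold change and varied widely, at 2.62, 4.38 and 14.7 CPM under db/m and 1.33, 0.357 and 5.62 CPM under db/db (-1.56, SE 0.96, adjusted p = 0.268). Hsd11b2, which shields the mineralocorticoid receptor of principal cells from glucocorticoids, had -0.06 (adjusted p = 0.797).

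Set against this marker sum, Aqp2 was at 1.34, 1.497 and 1.65 in db/m replicates 1 to 3 and 0.934, 0.575 and 0.923 in db/db replicates 1 to 3. The groups did not overlap (exact permutation p = 0.10, two-sided, adjusted p = 0.22). The ratio was lowest in db/db 2, where the medullary markers given below were also lowest. The principal cell sum did not follow those markers across libraries, so the ratio does not hold medullary content constant. Avpr2 relative to the same sum was 0.0352, 0.0584 and 0.0790 under db/m and 0.0294, 0.0284 and 0.0361 under db/db, with overlap (exact permutation p = 0.20). For Aqp3 the ratio was 0.339, 0.300 and 0.246 against 0.318, 0.236 and 0.277, again with overlap (exact permutation p = 0.70).

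**Figure D3:**
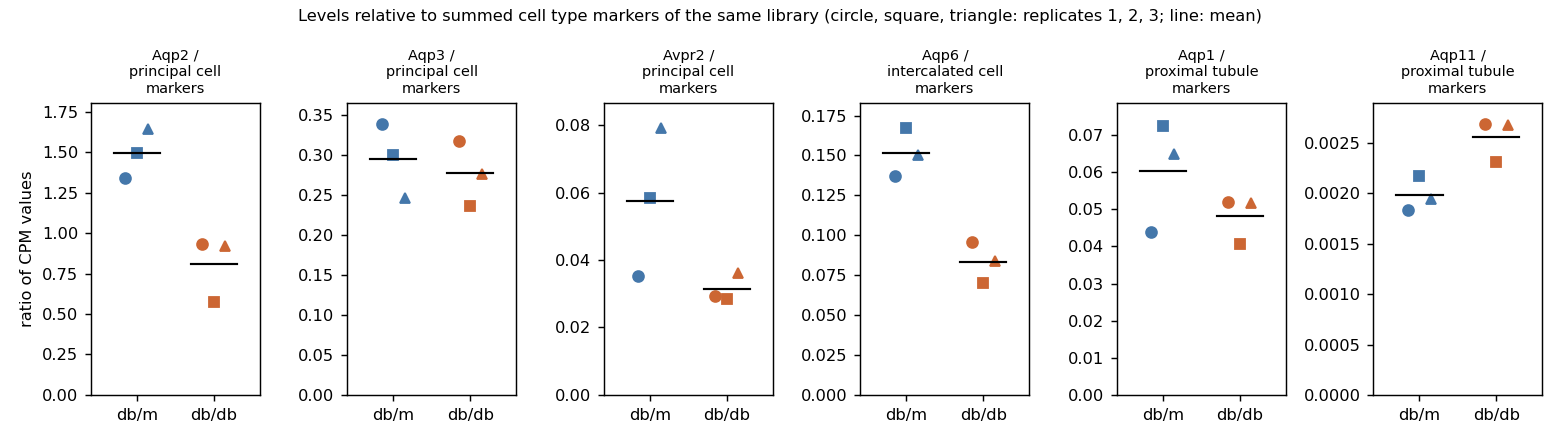
CPM of a gene divided by the summed CPM of cell type markers in the same library (y axis, ratio starting at 0) for 3 db/m (blue) and 3 db/db (orange) libraries, with the mean (line). Ratios of Aqp2 and Aqp6 lie lower and those of Aqp11 higher in every db/db library, while those of Aqp3, Avpr2 and Aqp1 overlap between groups. The intercalated cell sum mixes markers of acid-secreting and base-secreting cells.

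Aqp4, the other exit channel of principal cells and more a gene of the medullary than of the cortical collecting duct, varied most. It had 14.0, 43.1 and 98.4 CPM in db/m replicates 1 to 3 and 13.0, 1.86 and 23.5 CPM in db/db replicates 1 to 3. The spread within db/m was as wide as the difference between groups, which overlapped, and the log2 fold change of -2.01 (SE 0.90, 95% interval -4.13 to 0.10, edgeR adjusted p = 0.144) did not pass. Without both db/m 3 and db/db 2, its highest and lowest libraries, it was -0.64 (adjusted p = 0.47).

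Markers of the inner medulla and the renal pelvis moved with Aqp4 across libraries. Slc14a2, the urea transporter of the inner medullary collecting duct and thin descending limb, was at 18.9, 45.3 and 91.5 CPM in db/m replicates 1 to 3 and 20.4, 0 and 52.2 CPM in db/db replicates 1 to 3. The chaperone gene Cryab, high in the inner medulla, was likewise highest in db/m 3 (526 CPM) and lowest in db/db 2 (34.2 CPM). The 6 urothelial markers summed to 41.0, 35.7 and 93.3 CPM under db/m and 15.3, 1.35 and 47.0 CPM under db/db. Of these, Upk1b, Upk2, Upk3a, Upk3b and Krt5 had no count in db/db 2.

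The part of medullary content in the levels of Aqp2, Avpr2 and Aqp4 was not tested. Without both db/m 3 and db/db 2, Aqp2 had a log2 fold change of -0.91 (adjusted p = 0.066) and Avpr2 -0.86 (adjusted p = 0.224) in 2 against 2 libraries.

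**Figure D4:**
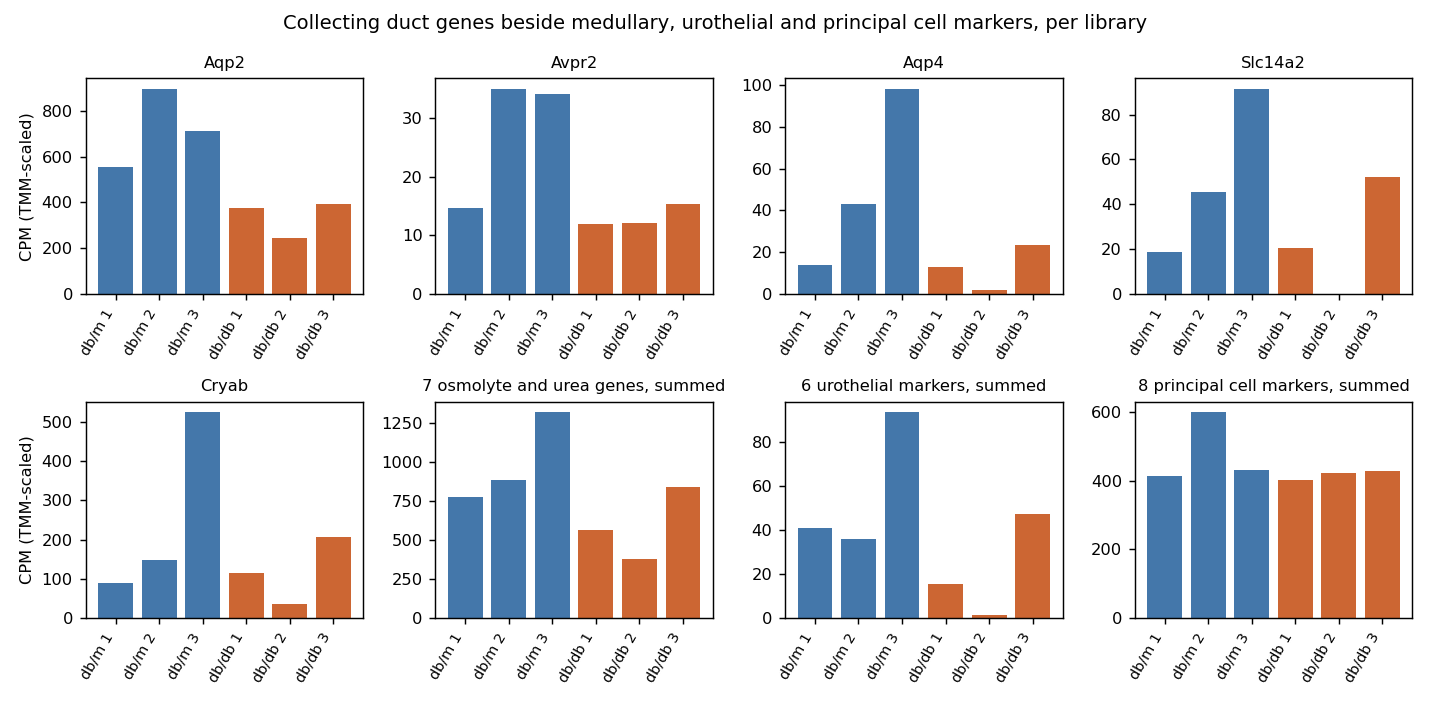
CPM per library (y axes, starting at 0; blue db/m, orange db/db) of Aqp2, Avpr2 and Aqp4 beside the medullary genes Slc14a2 and Cryab and the summed osmolyte and urea genes, urothelial markers and principal cell markers. Aqp4, Slc14a2, Cryab and the osmolyte and urothelial sums are highest in db/m 3 and lowest in db/db 2, while the principal cell sum is highest in db/m 2.

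Aqp6, found in vesicles of acid-secreting intercalated cells and permeable to anions, had 52.5, 79.7 and 48.8 CPM in db/m libraries and 37.0, 30.8 and 32.5 CPM in db/db libraries. All db/db values were lower, with a log2 fold change of -0.85 (SE 0.19, edgeR adjusted p = 0.019). The call ended without db/db 2 (adjusted p = 0.0712) or db/db 3 (0.0686), with log2 fold changes of -0.79 and -0.83. The 8 intercalated cell markers summed to 383, 476 and 325 CPM under db/m and 387, 440 and 387 CPM under db/db. Aqp6 relative to that sum was 0.137, 0.167 and 0.150 against 0.0955, 0.0701 and 0.0840, with no overlap (exact permutation p = 0.10, two-sided, adjusted p = 0.22). That sum mixes markers of acid-secreting cells, such as Slc4a1 (log2 fold change -0.88), with those of base-secreting cells, such as Slc26a4 (0.41). Aqp6 relative to acid-secreting cells alone was not tested.

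Other intercalated cell markers went both ways. The transcription factor gene Dmrt2 fell (log2 fold change -1.71, SE 0.35, edgeR adjusted p = 0.0135), as did Slc4a1, the anion exchanger on the blood side of acid-secreting cells (-0.88, SE 0.20, adjusted p = 0.0202, and 0.0742 or 0.0729 without db/db 2 or 3). Slc26a4, which encodes pendrin in base-secreting cells, rose by 0.41 (SE 0.11, adjusted p = 0.0347). The pendrin gene's call ended without any library other than db/db 3 (adjusted p = 0.0641 to 0.105). With total counts only its log2 fold change was 0.15 (adjusted p = 0.311). Slc4a9 had 0.23 (adjusted p = 0.468), and -0.03 under scaling by total counts only.

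Aqp5, better known from glands and lung, was near the limit of detection at 0.545, 0.658 and 1.32 CPM under db/m and 0.281, 0.198 and 0.840 CPM under db/db (log2 fold change -0.91, SE 0.61, edgeR adjusted p = 0.305). In the RefSeq gene order it stands between Aqp2 and Aqp6, its neighbours on either side. The predicted gene Gm34765 overlaps all 3 and was at 1.67 CPM or less in every library. Aqp3 and Aqp7 are also neighbours, and neither passed the test.

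The sequences just upstream of the genes that were called are shown because Aqp2, Aqp6 and Avpr2 were lower together and Aqp11 was the member that was higher. Each runs 5′ to 3′ on the gene's own strand, from 250 bases before to 50 bases after the RefSeq start on GRCm38.p6, and 9 of the 10 members matched the table. Capitals mark matches on either strand to the cyclic AMP response element core TGACGT, the GATA motif AGATAA, the E-box CACGTG, the AP-1 motif TGANTCA and the TATA box TATAAA, none of which overlapped another in these windows. Coordinates are chr15:99578806-99579105 (plus strand) for Aqp2, chr15:99600950-99601249 (plus strand) for Aqp6, chrX:73891852-73892151 (plus strand) for Avpr2 and chr7:97738198-97738497 (minus strand) for Aqp11.
Aqp2: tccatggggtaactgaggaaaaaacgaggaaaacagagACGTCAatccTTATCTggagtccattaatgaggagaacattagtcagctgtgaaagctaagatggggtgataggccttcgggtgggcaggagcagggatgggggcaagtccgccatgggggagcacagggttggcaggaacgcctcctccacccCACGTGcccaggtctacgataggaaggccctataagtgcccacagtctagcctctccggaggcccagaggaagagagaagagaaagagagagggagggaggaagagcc
Aqp6: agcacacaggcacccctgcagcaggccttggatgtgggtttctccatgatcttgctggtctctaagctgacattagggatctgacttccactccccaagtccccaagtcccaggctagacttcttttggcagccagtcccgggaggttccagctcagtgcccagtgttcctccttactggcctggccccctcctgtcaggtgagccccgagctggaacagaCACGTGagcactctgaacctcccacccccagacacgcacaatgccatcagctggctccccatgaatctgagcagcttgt
Avpr2: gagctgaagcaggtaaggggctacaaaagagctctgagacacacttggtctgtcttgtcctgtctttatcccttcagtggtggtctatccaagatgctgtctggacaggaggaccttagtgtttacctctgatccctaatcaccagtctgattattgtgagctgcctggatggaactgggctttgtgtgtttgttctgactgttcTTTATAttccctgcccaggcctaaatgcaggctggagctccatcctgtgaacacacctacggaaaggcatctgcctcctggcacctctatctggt
Aqp11: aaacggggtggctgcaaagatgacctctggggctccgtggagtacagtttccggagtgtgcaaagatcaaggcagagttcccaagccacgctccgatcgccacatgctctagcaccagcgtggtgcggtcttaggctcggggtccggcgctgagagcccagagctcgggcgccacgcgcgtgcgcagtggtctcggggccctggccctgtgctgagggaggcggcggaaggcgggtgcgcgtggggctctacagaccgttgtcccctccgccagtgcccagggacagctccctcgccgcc

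The Aqp2 window held a cyclic AMP response element core, a GATA match and an E-box. Of 32851 promoter windows of the same length 7.51% held the first, 11.2% the second and 7.15% the third. The Aqp6 window held an E-box, as did the windows of Aqp5 and Aqp8, which were not called. Among other genes not called, an Aqp7 window held a GATA match and the Aqp3 window a TATA box. The Avpr2 window held the TATA box letters only on the strand opposite to the gene, and 13.6% of windows hold them on either strand. The AP-1 motif, in 7.81% of windows, was in none of the 4 windows shown, and the Aqp11 window held none of the 5 motifs. A match describes letters only.

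Aqp11, an intracellular aquaporin of the proximal tubule endoplasmic reticulum whose loss in mice gives vacuolated proximal tubules and cystic kidneys, was the member that rose. It had 33.8, 30.1 and 29.0 CPM in db/m libraries and 44.7, 43.6 and 43.6 CPM in db/db libraries. The groups were well apart and the db/db libraries lay close together, with a log2 fold change of 0.50 (SE 0.09, 95% interval 0.30 to 0.71, edgeR adjusted p = 0.0076), which is 1.42-fold higher. The size of this rise depended on scaling, and with total counts only it was 0.24 (adjusted p = 0.0479), where the median of all genes stood at -0.32 instead of -0.06. No single library left out ended the call (adjusted p = 0.00767 to 0.0345).

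Aqp1, the constitutive water channel of the proximal tubule, thin descending limb and descending vasa recta, had 811, 1009 and 973 CPM under db/m and 867, 768 and 842 CPM under db/db. The groups overlapped, with db/m 1 among the db/db values, and the log2 fold change was -0.17 (SE 0.11, 95% interval -0.43 to 0.09, edgeR adjusted p = 0.289). With total counts only it passed as lower (log2 fold change -0.44, adjusted p = 0.0304). Aqp7, an aquaglyceroporin of the brush border of the late (S3) proximal tubule, had 15.1, 21.5 and 21.8 CPM under db/m and 26.6, 16.6 and 23.0 CPM under db/db. It overlapped widely, at a log2 fold change of 0.18 (SE 0.21, edgeR adjusted p = 0.558), or -0.08 with total counts only.

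Aqp8, a channel for water and other small neutral molecules, was scarce, with 48, 51 and 57 counts in db/m replicates 1 to 3 and 9, 0 and 21 counts in db/db replicates 1 to 3. In CPM these were 1.74, 1.29 and 1.84 against 0.361, 0 and 0.767. The 0 allows up to 0.119 CPM if each fragment counted once. Although the groups did not overlap, the log2 fold change of -2.08 (SE 0.80) missed the threshold in edgeR (adjusted p = 0.10) and passed in DESeq2 (-2.09, adjusted p = 0.047). Its size was uncertain, at -1.503 without db/db 2, the library with no count, -3.14 without db/db 3 and -3.12 in limma-voom, none of which passed (adjusted p = 0.0732, 0.0746 and 0.0636). Aqp9, another aquaporin listed in the table, had at most 5 counts in a library and was not tested.

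Most S3 markers rose strongly. Of 9 general markers 1 was called lower (Slc5a12, a lactate cotransporter, log2 fold change -0.60, SE 0.17, edgeR adjusted p = 0.0399, and 0.0855 to 0.13 without db/m 1, db/m 3, db/db 1 or db/db 3), and the median was 0.04. Over all genes tested 10.8% were called lower and 13.1% higher. The summed level of the general markers was 13910 to 18436 CPM for db/m and 16247 to 18851 CPM for db/db. Of 7 S3 markers, with a median of 3.63, Slc6a18 had -0.24 (edgeR adjusted p = 0.326) and the other 6 rose. Acsm3, for example, stood at 14.5, 14.1 and 20.3 CPM under db/m and 1028, 728 and 997 CPM under db/db, and the androgen-regulated kidney gene Kap at 231 to 1400 CPM against 33061 to 36390 CPM. Aqp7, of the same segment, had the overlapping values given above. Whether the S3 segment or only these genes changed was not tested, nor was their part in the rise of Aqp11. Sex was not given for either label, and the part of sex or androgen state in these values was not tested. Relative to the summed general markers, Aqp11 was 0.00184, 0.00217 and 0.00194 under db/m and 0.00269, 0.00231 and 0.00268 under db/db, with no overlap (exact permutation p = 0.10, two-sided, adjusted p = 0.22), and Aqp1 overlapped (exact permutation p = 0.30).

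Markers of other cells that carry aquaporins varied between single libraries. The red cell markers, of interest because red cells carry AQP1, summed to 29.5, 144 and 41.2 CPM under db/m and 37.7, 86.0 and 280 CPM under db/db. The part of red cells in the level of Aqp1 was not tested. The adipocyte markers, of interest because adipocytes use AQP7 to release glycerol, summed to 70.9, 52.0 and 177 CPM under db/m and 73.2, 71.4 and 374 CPM under db/db, and Adipoq was at 13.6 CPM in db/m 3, 19.2 CPM in db/db 3 and 1.34 CPM or less elsewhere. Aqp7 was at 21.8 CPM in db/m 3 and 23.0 CPM in db/db 3, against 15.1 to 26.6 CPM over all 6 libraries, and the part of adipocytes in it was not tested. The skeletal muscle markers, of interest because muscle fibres carry AQP4, summed to 1.32 CPM or less in every library. The 8 markers of endothelium and vasa recta summed to 285 to 429 CPM for db/m and 381 to 449 CPM for db/db, and 7 of them had log2 fold changes above 0. The descending vasa recta marker Slc14a1, a urea transporter gene, differed from these at 3.78, 7.16 and 9.18 CPM against 2.17, 0.357 and 3.91 CPM (log2 fold change -1.64, SE 0.70, edgeR adjusted p = 0.128), and its part in the level of Aqp1 was not tested.

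Genes around vasopressin and water transport were followed in 7 lists of 62 symbols, of which 61 were in the table and tested. Among these 61 genes 12 fell and 6 rose, beside 10.8% lower and 13.1% higher over all genes, and the median log2 fold change was -0.03 against -0.06. The same shares stand beside the counts of each list below. The counts over the 61 genes depended on scaling and on single libraries. They were 23 lower and 2 higher with total counts only, and 5 to 11 lower and 3 to 7 higher when a single library was left out. Levels are of whole kidney, and which cells gave the differences in these lists was not tested.

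**Figure D5:**
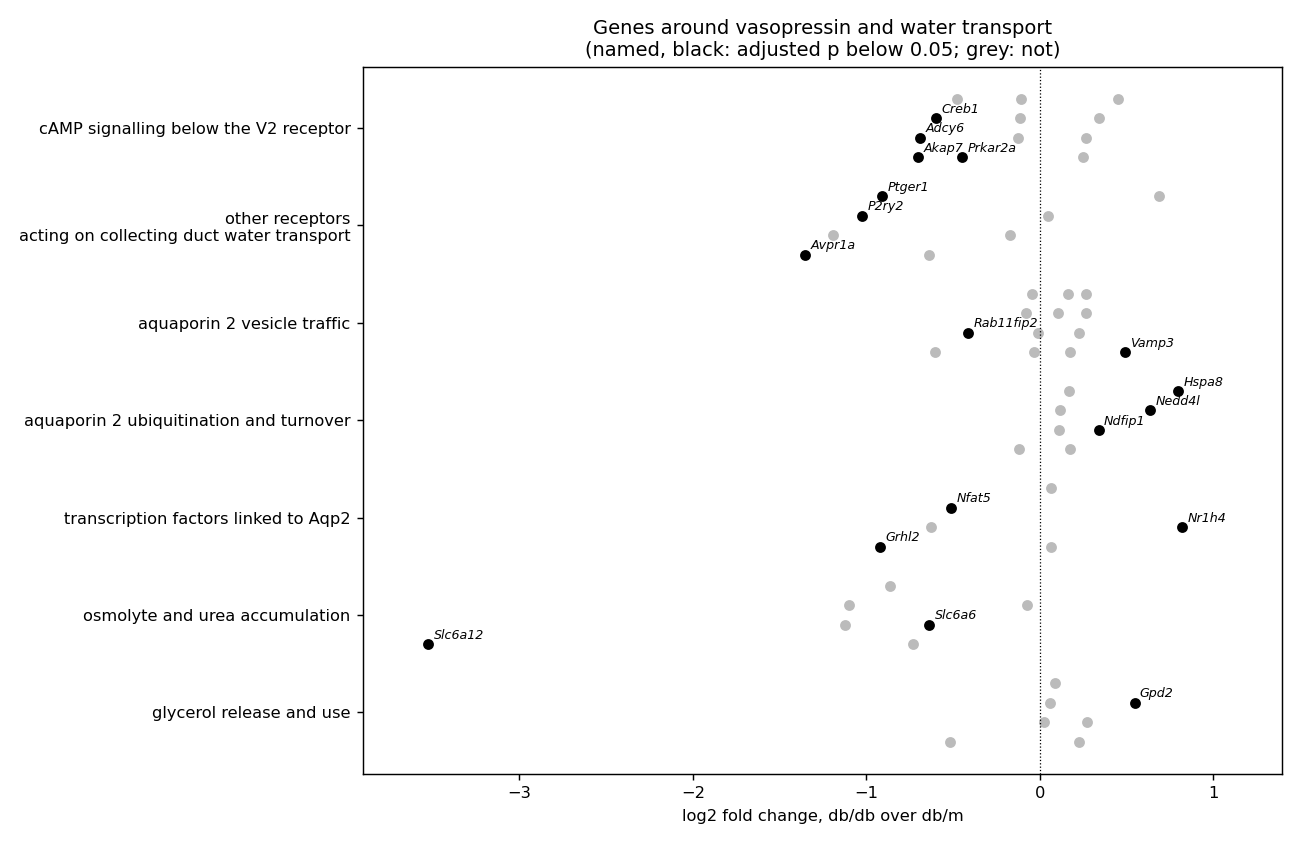
Log2 fold change (x axis, db/db over db/m) of the 61 tested genes of 7 lists (y axis; the height within a list only separates points). Black points with names passed the adjusted threshold, 12 of them below 0 and 6 above.

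Below the receptor, 4 of 12 cyclic AMP signalling genes fell in whole kidney RNA, without a test of which cells gave the difference. Adcy6, the adenylyl cyclase that answers the V2 receptor in principal cells, had 182, 187 and 160 CPM under db/m and 107, 115 and 107 CPM under db/db. The groups were well apart, with a log2 fold change of -0.69 (SE 0.09, edgeR adjusted p = 0.00239), and the call held in all 16 alternative settings (adjusted p up to 0.0226). Creb1, the transcription factor that binds cyclic AMP response elements, was at -0.60 on the log2 scale (SE 0.13, adjusted p = 0.0175, and 0.0655 or 0.0593 without db/m 2 or db/db 3). The kinase subunit Prkar2a and the kinase anchor Akap7 had -0.45 (adjusted p = 0.0263) and -0.70 (adjusted p = 0.0329). Each of these 2 calls ended in 4 of the 6 fits without a single library (adjusted p = 0.0592 to 0.0761 for Prkar2a without db/m 1, 2 or 3 or db/db 3, and 0.057 to 0.10 for Akap7 without db/m 1 or db/db 1, 2 or 3). Akap7 also missed the threshold in limma-voom (adjusted p = 0.0508). With TMM scaling and all 6 libraries edgeR called 0 of these genes higher, where 3 had an unadjusted p below 0.05, and limma-voom called 0. DESeq2 called 1, as did edgeR with DESeq2's size factors or without db/m 3.

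Receptors that modulate water transport beside Avpr2 were also lower in part, 3 of 8. The prostaglandin E2 receptor gene Ptger1 had 19.4, 29.0 and 24.5 CPM under db/m and 13.3, 12.6 and 12.9 CPM under db/db (log2 fold change -0.91, SE 0.15, edgeR adjusted p = 0.00681). Avpr1a, the V1a vasopressin receptor gene, was at 8.65, 10.7 and 5.31 CPM against 3.61, 3.21 and 2.85 CPM (-1.35, SE 0.28, adjusted p = 0.0141, and 0.0516 or 0.0573 without db/db 2 or 3). P2ry2, a nucleotide receptor that opposes vasopressin, had -1.02 (SE 0.25, adjusted p = 0.0262, and 0.0849, 0.0557 or 0.0538 without db/m 2, db/m 3 or db/db 3). Ptger3, another prostaglandin receptor that lowers cyclic AMP, had -1.19 without passing (adjusted p = 0.0873), and passed without db/m 1 (0.0495) or db/db 1 (0.0463).

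Genes of AQP2 vesicle traffic were mostly not called, with 1 of 13 higher and 1 lower. The vesicle SNARE gene Vamp3 rose by 0.49 (SE 0.10, edgeR adjusted p = 0.016), which was 0.23 with total counts only (adjusted p = 0.148) and missed the threshold without db/m 2 (adjusted p = 0.0535). Rab11fip2, an adaptor for recycling vesicles, had -0.41 (SE 0.11, adjusted p = 0.036), a call that ended with no filter (0.061) and whichever single library was left out (0.0718 to 0.12). Mal, a raft protein that binds AQP2, had -0.60 (adjusted p = 0.0889, and 0.0259 without db/m 1) and Sipa1l1 had 0.27 (adjusted p = 0.0995).

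Of 8 genes of AQP2 ubiquitination and turnover 3 rose. Hspa8, the constitutive chaperone that binds AQP2, had 976, 1137 and 1169 CPM under db/m and 1877, 1943 and 1883 CPM under db/db (log2 fold change 0.80, SE 0.10, edgeR adjusted p = 0.00243), and its call held in all 16 alternative settings. The ubiquitin ligase gene Nedd4l rose by 0.64 (SE 0.11, adjusted p = 0.00823), and had 0.37 under scaling by total counts only (adjusted p = 0.0502). Ndfip1, which recruits ligases of that family, rose by 0.34 (SE 0.08, adjusted p = 0.0196). With total counts only it had 0.08 (adjusted p = 0.438), and its call ended without db/m 2 (0.0728), db/db 1 (0.0649) or db/db 3 (0.0781). Cul5 had 0.17 (adjusted p = 0.216), or -0.09 with total counts only. These genes are active in most kidney cells, and which cells gave the difference was not tested.

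Of 6 transcription factors linked to Aqp2, Nr1h4, the bile acid receptor FXR, rose from 210, 129 and 148 CPM to 285, 287 and 288 CPM (log2 fold change 0.82, SE 0.17, edgeR adjusted p = 0.0147). The epithelial factor Grhl2 had -0.92 (SE 0.24, adjusted p = 0.0312), and this call ended without any library other than db/m 1 (0.0611 to 0.0972). Nfat5, the factor that answers high salt around medullary cells, had 57.4, 61.3 and 74.3 CPM against 44.4, 39.3 and 51.5 CPM (-0.51, SE 0.14, adjusted p = 0.0335). Its call ended without db/m 2, db/m 3, db/db 1 or db/db 2 (adjusted p = 0.0702 to 0.101). Elf3 had -0.63 (adjusted p = 0.378).

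All 7 genes of osmolyte and urea accumulation had values below 0, of which 2 passed, with a median of -0.86. The taurine transporter gene Slc6a6 fell from 499, 442 and 470 CPM to 338, 239 and 330 CPM (log2 fold change -0.64, SE 0.14, edgeR adjusted p = 0.019). Slc6a12, the betaine transporter of medullary cells, was at 9.78, 21.4 and 13.7 CPM under db/m and 0.843, 0 and 2.99 CPM under db/db (-3.53, SE 0.95, adjusted p = 0.0343). The betaine transporter's call ended in DESeq2 (0.092) and without db/m 2 (0.0976), db/m 3 (0.0571) or db/db 1 (0.107). Slc5a3, the inositol transporter, had -0.86 (adjusted p = 0.0848), Hspa1b, whose reads may be split with the near-identical Hspa1a, had -1.12 (adjusted p = 0.15) and Akr1b3, which makes sorbitol, had -0.73 (adjusted p = 0.533). The list, which includes Slc14a2, had a summed level of 774, 885 and 1318 CPM under db/m and 562, 375 and 837 CPM under db/db. Its peak in db/m 3 came with Akr1b3 at 471 CPM there, while Slc6a6 was highest in db/m 1 and Slc6a12 and Slc5a3 in db/m 2. All of these were lowest in db/db 2, and the part of medullary content was not tested.

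Genes of glycerol release and use, the solute of Aqp3 and Aqp7, were mostly not called, with 1 of 7 higher. Gpd2, the mitochondrial glycerol phosphate dehydrogenase, rose by 0.55 (SE 0.15, edgeR adjusted p = 0.037), and had 0.28 under scaling by total counts only (adjusted p = 0.215). It passed with db/m 3 left out and missed the threshold without any other single library (0.0772 to 0.106). Gk, glycerol kinase, had 0.23 (adjusted p = 0.258), or -0.04 with total counts only. Mgll had -0.52 (adjusted p = 0.0665, and 0.0436 without db/db 3) and Pnpla2 had 0.27 (adjusted p = 0.319).

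The genes whose log2 CPM most resembled selected members over the 6 libraries were found among 11042 genes by Pearson's r, as a description, since the points share libraries and group labels. The closest genes to Aqp2 included Nupl1 (r = 0.995) and Ceacam2 (0.994), and 180 genes had r above 0.95. For Aqp11 they were Hrg (0.998), Fars2 (0.997) and Tmem223 (0.996), with 567 genes above 0.95. For Aqp1 they were Mtmr9 (0.992), St14 (0.991) and Csf1 (0.988), with 48 above 0.95. Aqp3 had the fewest close matches, led by Tmem167b (0.982), Mcoln3 (0.977) and Ache (0.9753), with 9 genes above 0.95.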

How the data were processed

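RNA of 6 whole kidney samples was measured, 3 labelled db/db and 3 labelled db/m. Per the labels' protocols, messenger RNA was bound to oligo(dT) beads and built into stranded libraries. Alignment and counting tools named in the submitters' processing notes include HISAT2, SAMtools and StringTie. No version, genome build or counting setting was given in the sources used here. The table deposited by the authors holds raw whole-number counts, with a row for each gene symbol. Counts of 2 (4164) outnumber counts of 1 (1318), so a fragment may count more than once.

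Members and lists were chosen with earlier results of these data known. Genes were filtered with filterByExpr (16373 left), scaled by TMM and compared with the edgeR 4.0.16 quasi-likelihood test in R 4.3.3, Benjamini-Hochberg adjusted over all genes. Total counts per library set the precision. Replicates of a group were checked against each other and differed by more than counting error (chi-square over its degrees of freedom, 15.9 to 59.5), so each was kept. Beyond the members, the genes named are up to 4 of each pathway list and of 4 marker lists by smallest p, and 3 genes most like each of Aqp1, Aqp2, Aqp3 and Aqp11. Elf5, Hsd11b2, Akr1b3, Slc14a1, Slc6a18 and the genes of the medullary, urothelial, adipocyte and overlap checks were named after their values were seen. The 11 ratios were chosen then too. Alternatives were DESeq2 1.42.0, limma-voom (limma 3.58.1), other scalings and filters, a replicate block and libraries left out. The procedure was tested on simulated data. A marker gene and its results are not reported here.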

Additional observations from a re-analysis of the deposited data

How the results depend on the processing

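Of 159 alternative values for the fold changes of the 10 genes, 139 kept their direction and side of the threshold, 17 lost a call, 2 gained one and 1 changed sign. The 3 calls as lower became 1 with the replicate block, 0 with db/m 3 left out together with db/db 3, 0 with db/m 3 left out together with db/db 2 (chosen after seeing the data), and 1 to 3 with a single library left out. The 1 call as higher became 0 with db/m 3 left out together with db/db 3. Both fits without a pair of libraries compare 2 with 2. Of the pathway genes, 6 higher and 12 lower became 2 and 23 with total counts only, 3 and 6 with the replicate block, 3 and 3 with db/m 3 left out together with db/db 3, and 3 to 7 higher and 5 to 11 lower with a single library left out. With db/m 3 and db/db 2 left out, 5 were lower. The cause of these shifts was not tested, beyond there being fewer libraries in some.

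The replicate block took Aqp2 to adjusted p = 0.0524 and Avpr2 to 0.0539, and calls over all genes from 2151 higher and 1774 lower to 1313 and 973. Whether same-numbered libraries share more than a number was not settled. Their deviations from group means had correlations of -0.15, 0.0574 and 0.143, and not every library correlated best with its own number. With 3 libraries per group, such correlations cannot exclude a shared batch. Adipoq (13.6 and 19.2 CPM) and Akr1b3 (471 and 260 CPM) were highest in replicate 3 of both groups. Aqp6 was not, being highest in db/m 2 and db/db 1. Signs changed for Aqp7 (-0.0834), Cul5 (-0.0911), Gk (-0.0363) and Slc4a9 (-0.0303) with total counts only, and for Elf3 (0.18) and Slc4a9 (-0.0933) with db/m 3 left out together with db/db 2. The mean log2 difference in the ratio of Aqp3 to principal cell markers ranged from -0.214 to 0.0192, and that in Aqp2 over Avpr2 from -0.297 to 0.139, when a library was left out. With total counts only, the median log2 fold change of all genes was -0.318 instead of -0.0567. Aqp5 was not tested with the stricter filter (at least 1 CPM and 10 counts in 3 libraries). Depth limits Aqp5, Aqp8 and Aqp9, which had few counts.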
